A study of Homo sapiens with 6 samples.

Results

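Serine synthesis and folate one-carbon metabolism were followed through 10 enzyme genes: PHGDH, PSAT1, PSPH, SHMT1, SHMT2, MTHFD1, MTHFD1L, MTHFD2, ALDH1L2 and ASNS. They were chosen by gene name in the table of raw read counts, and all 10 had a row among 23382 gene names. The cells were UM-UC-3, a line established from a human bladder cancer and written UMUC3 in the labels. RNA sequencing gave 6 libraries, of which 3 carry the label negative control and 3 the label si-CPSF3, for a small interfering RNA against CPSF3, the endonuclease that cuts pre-mRNA before polyadenylation. All 6 come from this single line with no other treatment or allele named, and the labels name neither the siRNA dose, nor its time, nor the nature of the control. The labels number the libraries 1 to 3 in each group without saying whether they were separate cultures, so the p-values measure a spread between libraries that may be technical.

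Library totals lay between 4145385 and 4378899 counts, of which ribosomal protein genes and their pseudogenes took 47.3% to 53.0%. CPSF3 itself was not lower where it should have been: in replicate order the control libraries had 20, 50 and 36 counts and the libraries labelled si-CPSF3 had 56, 38 and 66 (log2 fold change 0.67, SE 0.32, edgeR adjusted p = 0.329). The target therefore goes against the label, and "higher" and "lower" below refer only to the libraries labelled si-CPSF3 compared with those labelled control. KRT8, KRT18 and VIM were present (control means of 135, 97.3 and 275 CPM, counts per 1000000 of the scaled library total). KRT19, EPCAM, CDH1, UPK2 and UPK3A, further markers of epithelium and urothelium, had no recorded count. Here and below, this means either 0 in all 6 libraries or no row under that name, which were not separated. The other 5 of 7 urothelial markers had counts, and the list summed to 12.5 to 14.6 CPM in control and 9.40 to 10.9 CPM in the other group. Of the leukocyte markers, PTPRC and CD3E had no recorded count. The summed level of the list of 5 ran from 38.6 to 42.9 CPM in control and from 28.1 to 34.1 CPM in the other group. The part of the urothelial or leukocyte list in the results below was not tested. The endothelial markers VWF and CDH5 and the erythroid markers HBB and ALAS2 had no recorded count. In bulk RNA, fewer cells of a kind and less RNA per cell cannot be told apart.

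Cells make serine from an intermediate of glycolysis in a chain of steps run by PHGDH, PSAT1 and PSPH. Serine hydroxymethyltransferases then split serine into glycine and a carbon unit carried on tetrahydrofolate. In mitochondria SHMT2, MTHFD2 and MTHFD1L turn that unit into formate, and in the cytosol MTHFD1 and SHMT1 use formate and serine to supply purine, thymidylate and methionine synthesis. The mitochondrial branch is known for high expression in many tumours, and several of these genes, with the asparagine synthetase gene ASNS, are known targets of ATF4, the transcription factor of the integrated stress response.

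Of the 10 members, 8 had enough counts to be tested, and 1 of them, SHMT2, fell. None rose by edgeR as reported (0 of 8 higher, also 0 at an unadjusted p under 0.05, and 0 higher by DESeq2 and by limma-voom). In other edgeR fits, 1 member was higher at an unadjusted p under 0.05. These were the fits with no filter on low counts, with the replicate number as a block, and without control replicate 2 or 3. Across the whole table, 247 of 11069 genes, or 2.23%, passed at an adjusted p under 0.05, 80 higher and 167 lower, and 1.51% of all genes passed as lower. Scaled by library totals alone, the split was 36 higher and 154 lower (18.9% higher, where the reported scaling had 32.4%), and the median of all genes moved to -0.10. Log2 fold changes of the 8 members ran from -0.67 to 0.37, with 5 below 0 and 3 above, and their median of -0.12 compares with -0.01 over all genes tested. At an unadjusted p under 0.05 stood 2 of the 8, SHMT2 and MTHFD1, where 15.4% of all genes did. These 2 were also the members whose groups did not overlap in CPM, which held for 21.2% of all genes, so that share of the members is near the background.

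**Figure D1:**
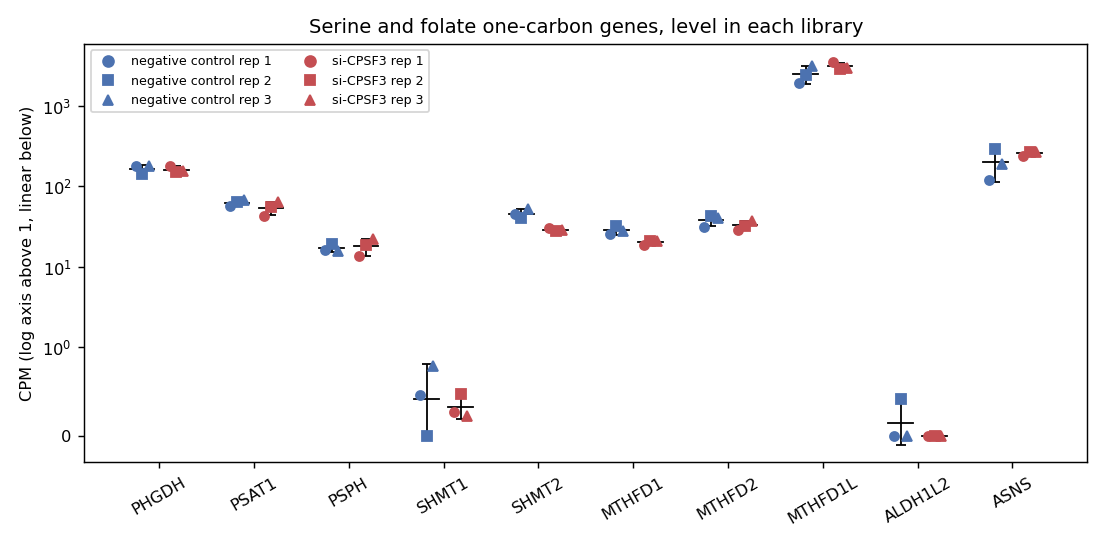
Level of each member in each library, in CPM, on an axis that is logarithmic above 1 and linear below. Blue symbols are the 3 negative control libraries and red symbols the 3 labelled si-CPSF3 (circle, square and triangle for replicates 1, 2 and 3), with the mean and SD in black. SHMT2 and MTHFD1 are the tested members whose red symbols all lie below the blue ones, and MTHFD1L stands above every other member, with the limit on its counts given in the text.

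On the length-corrected scale of the deposited FPKM values (fragments per kilobase of transcript, scaled to library size), the members covered a wide range of levels. MTHFD1L was first, at 545 to 1222 FPKM over the 6 libraries, and the next value was 189 FPKM, in ASNS. ASNS (87.0 to 189 FPKM) and PHGDH (87.4 to 142 FPKM) followed with ranges that overlapped. PSAT1 (18.2 to 40.7 FPKM) and SHMT2 (14.3 to 32.5 FPKM) came next in the mean and overlapped each other. The levels of PSPH (7.82 to 19.3 FPKM), MTHFD2 (5.56 to 13.2 FPKM) and MTHFD1 (5.06 to 12.03 FPKM) could not be put in order beyond their spread. PSPH also reached into the ranges of PSAT1 and SHMT2, and in si-CPSF3 replicate 3 it lay above SHMT2 (19.3 against 15.5 FPKM). SHMT1 and ALDH1L2 were at or below 0.392 and 0.0599 FPKM in every library.

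The serine synthesis enzymes gave no call. PHGDH, which oxidises phosphoglycerate in the first step and commits carbon to serine, stood at 178, 144 and 179.6 CPM in control (replicates in order, here and below) and at 182, 149 and 155 CPM in the si-CPSF3-labelled libraries. The groups overlapped, and the log2 fold change was -0.04 with a 95% interval of -0.37 to 0.28 (SE 0.15, edgeR adjusted p = 0.927), so the interval runs from 0.776-fold to 1.21-fold.

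PSAT1, the aminotransferase of the next step, was at 56.5, 64.6 and 67.4 CPM in control and 43.2, 55.6 and 64.2 CPM in the other group. Only replicate 1 of the libraries labelled si-CPSF3 lay clearly below the control range; replicate 2 lay just under the lowest control and replicate 3 inside the range (log2 fold change -0.21, interval -0.57 to 0.15, edgeR adjusted p = 0.621). PSPH, the phosphatase that releases serine, had 16.04, 19.0 and 15.6 CPM against 13.4, 18.7 and 22.0 CPM. Its values in the libraries labelled si-CPSF3 spanned those of control on both sides (log2 fold change 0.10, interval -0.38 to 0.58, adjusted p = 0.885 by edgeR). Without replicate 3 of that group the value was -0.07. For PHGDH it lay between -0.14 and 0.03 with 1 library left out, so neither gene has a direction. RefSeq lists 4 pseudogenes named for PSAT1 and 1 for PSPH, and the labels do not say how the counting shared reads with such copies.

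SHMT2, the mitochondrial serine hydroxymethyltransferase, fell. It is encoded on chromosome 12 from 57229711 to 57234935 (GRCh38.p14). Its raw counts were 203, 193 and 199 in control and 113, 118 and 127 in the si-CPSF3-labelled libraries, or 45.9, 40.2 and 51.8 CPM against 30.3, 27.6 and 28.8 CPM. Every control library lay above every library of the other group. The means were 46.0 ± 5.78 and 28.9 ± 1.39 CPM (SD, n = 3), a 0.630-fold level with a 95% interval of 0.494 to 0.803 (log2 fold change -0.67, SE 0.16, edgeR adjusted p = 0.0474). The deposited FPKM values, 32.5, 25.6 and 24.1 in control and 14.3, 15.1 and 15.5 in the other group, did not overlap either.

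The call of SHMT2 sat at the edge of the threshold. It passed again in 6 of 18 other settings, while the direction was the same in all 18, at a log2 fold change of -0.86 to -0.55. With 1 library left out it passed without control replicate 2 (adjusted p = 0.0458) and did not without control replicates 1 and 3 (0.147 and 0.177) or when si-CPSF3 replicate 1, 2 or 3 was left out (0.129, 0.167 and 0.113, all edgeR). DESeq2 gave an adjusted p of 0.0791 and limma-voom 0.0602. The gene NDUFA4L2 overlaps SHMT2 exons on the other strand; it had 2 counts in 1 library and 0 in the other 5.

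**Figure D2:**
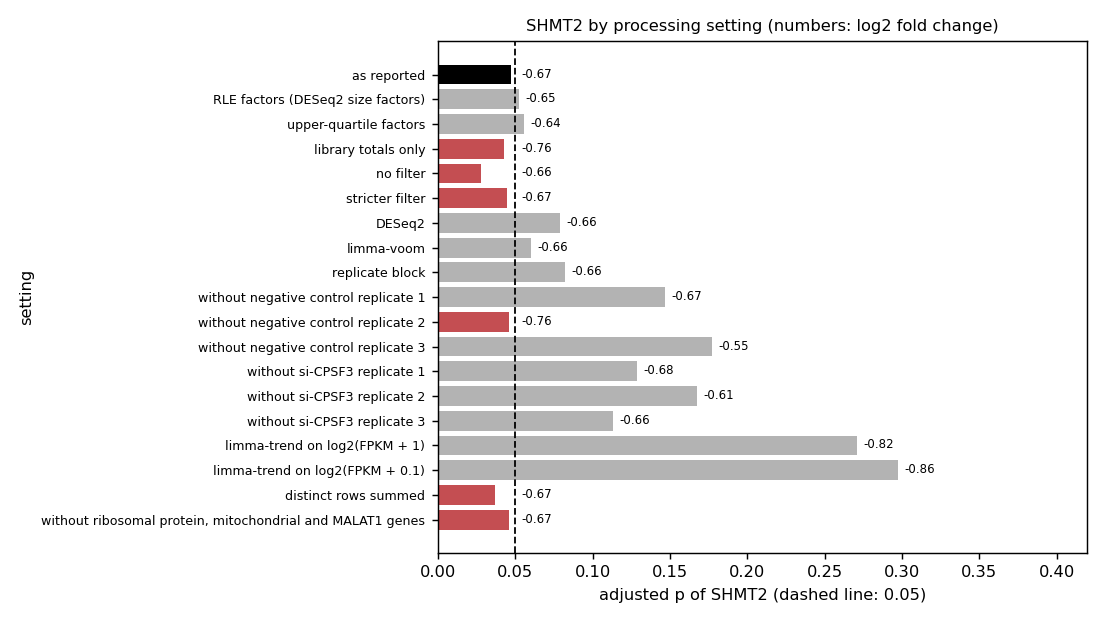
Adjusted p of SHMT2 (horizontal axis) as reported (black) and under 18 other settings (red where under 0.05, grey otherwise), with the log2 fold change as a number beside each bar. The fold change lies between -0.86 and -0.55 throughout, and 6 of the 18 bars end left of the dashed line at 0.05.

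SHMT1, the cytosolic enzyme that carries out the same reaction, was hardly detected. It had 2, 0 and 3 counts in control and 1, 2 and 1 in the other group, which is too few for a test, stood on 2 rows of the table with identical counts, and has 1 pseudogene named for it in RefSeq. ALDH1L2, which oxidises formyl-tetrahydrofolate to carbon dioxide in mitochondria, had 2 counts in control replicate 2 and 0 in the other 5 libraries. Both groups of ALDH1L2 lay under a floor of 3 counts, so no fold is given.

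MTHFD1, the cytosolic trifunctional folate enzyme that takes up formate, was at 25.5, 32.5 and 27.6 CPM in control and 18.5, 20.8 and 21.1 CPM in the si-CPSF3-labelled libraries. All 3 values of the second group lay below all 3 of the first, with a gap smaller than that of SHMT2 on the log2 scale. Its log2 fold change of -0.50 (interval -0.89 to -0.11) had an unadjusted p of 0.0151 and did not pass over all genes (edgeR adjusted p = 0.191). The gene overlaps exons of ZBTB25 on the opposite strand, which had 116, 143 and 131 counts in control and 127, 110 and 105 in the other group (log2 fold change -0.11), and without a stated strand setting the reads of the pair cannot be told apart. MTHFD2, the mitochondrial dehydrogenase and cyclohydrolase, had 31.6, 42.3 and 40.9 CPM against 28.7, 32.2 and 37.0 CPM, with overlapping groups (log2 fold change -0.23, interval -0.60 to 0.15, edgeR adjusted p = 0.597). RefSeq lists 7 pseudogenes named for MTHFD2 and 1 for MTHFD1.

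MTHFD1L, the mitochondrial enzyme that releases formate, held far more counts than the others. It had 8691, 11817 and 12406 counts in control and 13219, 12611 and 13382 in the si-CPSF3-labelled libraries, which is 0.210% to 0.317% of a library, while the other 9 members together took 0.0488% to 0.0697%. In CPM the values were 1963, 2463 and 3228 against 3550, 2945 and 3035, with overlapping groups and the lowest value in control replicate 1 (log2 fold change 0.32, interval -0.10 to 0.73, edgeR adjusted p = 0.487). Leaving out that library gave 0.16.

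A processed copy of a ribosomal protein gene lies inside MTHFD1L. The gene runs from 150865702 to 151101887 on chromosome 6, and the pseudogene RPL32P16 from 151099468 to 151099995 (GRCh38.p14), within an intron: no MTHFD1L exon of GENCODE 29 overlaps it and the next exon begins 1531 bases further on. RPL32P16 has no row in the counts table. RPL32, the parent gene for a protein of the large ribosomal subunit on chromosome 3, had 15027, 18405 and 20926 counts in control and 23277, 22133 and 23974 in the other group. The MTHFD1L count was 0.578, 0.642 and 0.593 of the RPL32 count in control and 0.568, 0.570 and 0.558 in the si-CPSF3-labelled libraries, with no overlap. A two-sided exact permutation test of the log ratio gave p = 0.1, the smallest value that 3 against 3 libraries allow. This ratio of raw counts varied by 1.15-fold over the 6 libraries. The MTHFD1L level varied by 1.81-fold in CPM, a scaled measure, while its raw counts ran from 8691 to 13382. How much of the MTHFD1L count comes from reads of RPL32 sequence was not tested, and the MTHFD1L values are given with that limit.

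**Figure D3:**
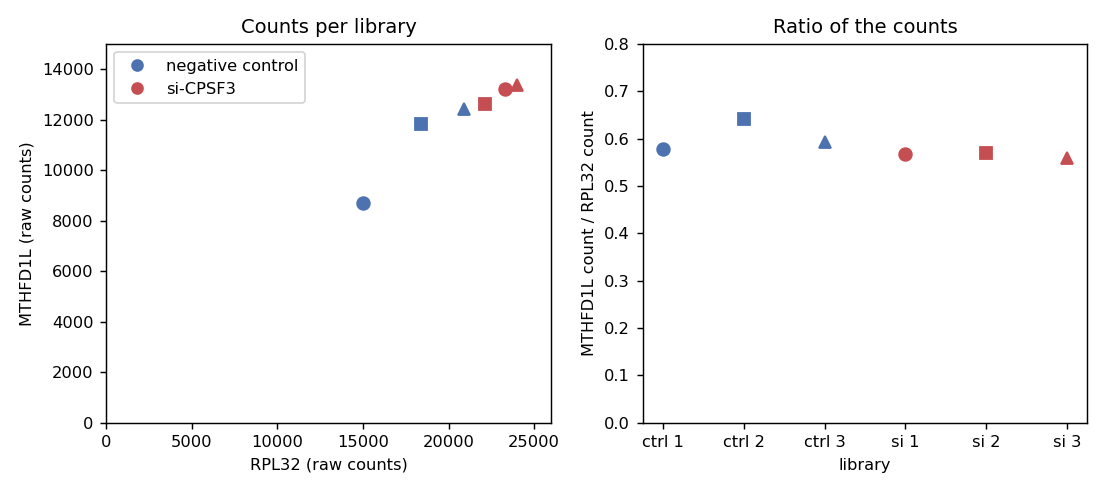
Left, raw counts of MTHFD1L against raw counts of RPL32 in each library; right, the ratio of these counts by library (blue, negative control; red, si-CPSF3; circle, square and triangle for replicates 1, 2 and 3). The ratio stays between 0.558 and 0.642, with every control value above every value of the other group.

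ASNS, which makes asparagine from aspartate and glutamine, varied widely among the control libraries. It was at 121, 291 and 188 CPM in control and at 242, 266 and 265 CPM in the other group. The control group spread on both sides of the other, which was tight: the means were 199.99 ± 85.4 and 258 ± 13.6 CPM (SD, n = 3). The log2 fold change of 0.37 (interval -0.12 to 0.86) did not pass (edgeR adjusted p = 0.502), and it ran from 0.11 without control replicate 1 to 0.74 without control replicate 2 (edgeR adjusted p = 0.889 and 0.0748). RefSeq lists 5 pseudogenes named for ASNS, with the limit on shared reads given for PSAT1.

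**Figure D4:**
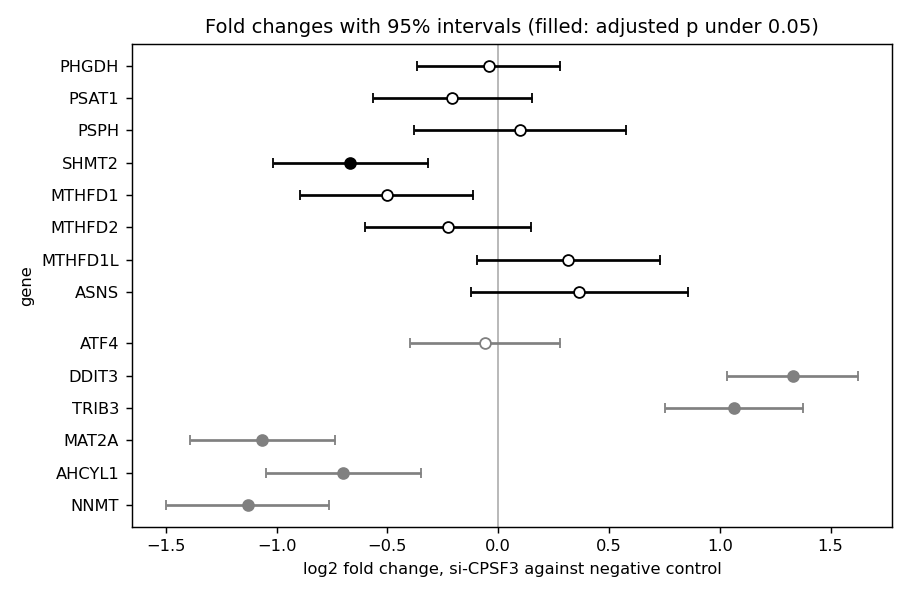
Log2 fold change of the 8 tested members (black) and of 6 genes of the neighbouring pathways (grey), libraries labelled si-CPSF3 against control, with 95% intervals. Filled circles passed at an adjusted p under 0.05: SHMT2 among the members, DDIT3 and TRIB3 above 0, and MAT2A, AHCYL1 and NNMT below 0.

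Ratios within a library to SHMT2, the member that fell, carry its change in their denominator. The PHGDH count was 3.88, 3.57 and 3.47 times the SHMT2 count in control and 6, 5.42 and 5.38 times in the other group, with no overlap. The ASNS count was 2.64, 7.23 and 3.63 times that of SHMT2 in control and 7.98, 9.66 and 9.21 times in the si-CPSF3-labelled libraries. A two-sided exact permutation test of the log ratio gave p = 0.1 for each of these 2 ratios, the smallest value that 3 against 3 libraries allow, so the test could not reach 0.05.

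The ATF4 arm of the stress response was read beside these genes. ATF4 mRNA itself was at 189.8 ± 28.0 and 182 ± 22.0 CPM (SD, n = 3; log2 fold change -0.06, edgeR adjusted p = 0.903). DDIT3, which encodes the stress transcription factor CHOP, rose from 82.9, 81.1 and 78.1 to 203, 206 and 199 CPM (2.51-fold, interval 2.05 to 3.08, edgeR adjusted p = 0.000124). TRIB3, a pseudokinase gene downstream of ATF4 and CHOP, rose 2.09-fold (interval 1.68 to 2.59, edgeR adjusted p = 0.00139). These were the 2 genes of 17 tested in that list that passed, both higher, where 0.723% of all genes passed as higher. At an unadjusted p under 0.05 stood 6 of the 17, all higher (5 higher and 2 lower with library totals only), where 15.4% of all genes did in either direction. The list's median was 0.19 beside -0.01 over all genes. For PHGDH, PSAT1 and MTHFD2, known as ATF4 targets, the upper interval bounds were 1.21-fold, 1.11-fold and 1.11-fold, below the lower bounds of both DDIT3 and TRIB3. Those of SHMT2, MTHFD1, PSPH and MTHFD1L were 0.803-fold, 0.925-fold, 1.49-fold and 1.66-fold. They also lay below both, with the limit on MTHFD1L counts given above. The upper bound of ASNS, 1.81-fold, lay below the lower bound of DDIT3 but above that of TRIB3. The difference between genes was not tested. DDIT3 and TRIB3 passed in all 6 fits that left out a library and in neither fit of the FPKM values.

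Promoter windows, 250 bases before to 50 after a transcription start, were available from RefSeq (GRCh38.p14) for 7 of the 10 members: SHMT1, PHGDH, PSAT1, MTHFD1, MTHFD1L, MTHFD2 and ASNS. They were searched on both strands for TGATGNAA, the core of the composite element of C/EBP and ATF factors through which ATF4 acts on ASNS, and for CACGTG, the E-box bound by MYC among others. Letters of a TGATGNAA match may overlap a CACGTG match, which none of the matches printed here did. TGATGNAA was found in 2 of the 7 windows, ASNS and MTHFD1L, and in 3.67% of 27305 windows of the same length. CACGTG was found in 2 of the 7, MTHFD1 and MTHFD1L, and in 7.43% of all windows. The windows of DDIT3 and TRIB3 held neither, and bases outside the windows were not searched for any gene. Each gene had 1 window at 1 start. The windows of ASNS and MTHFD1L lay inside the RefSeq span of the gene, so its outer end was not searched. The 3 windows with a match are printed because they hold the letters known for ATF4 or MYC in members that did not pass the test; capitals mark the matches, which begin 68 bases before the start in ASNS, 129 (TGATGCAA) and 154 (CACGTG) before it in MTHFD1L and 15 before it in MTHFD1.
ASNS promoter (chr7:97872359-97872658, minus strand): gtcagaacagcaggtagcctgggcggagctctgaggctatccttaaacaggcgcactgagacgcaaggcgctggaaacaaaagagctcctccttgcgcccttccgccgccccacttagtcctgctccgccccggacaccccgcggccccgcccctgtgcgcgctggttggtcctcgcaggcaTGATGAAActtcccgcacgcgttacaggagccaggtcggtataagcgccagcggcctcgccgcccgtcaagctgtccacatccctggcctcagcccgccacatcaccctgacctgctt
MTHFD1L promoter (chr6:150866236-150866535, plus strand): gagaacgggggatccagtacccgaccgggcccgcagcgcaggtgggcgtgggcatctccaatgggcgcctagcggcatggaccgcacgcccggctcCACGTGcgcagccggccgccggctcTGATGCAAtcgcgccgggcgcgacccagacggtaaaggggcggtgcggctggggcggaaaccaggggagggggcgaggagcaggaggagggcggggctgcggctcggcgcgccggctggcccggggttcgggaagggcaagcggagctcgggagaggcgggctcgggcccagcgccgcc
MTHFD1 promoter (chr14:64388103-64388402, plus strand): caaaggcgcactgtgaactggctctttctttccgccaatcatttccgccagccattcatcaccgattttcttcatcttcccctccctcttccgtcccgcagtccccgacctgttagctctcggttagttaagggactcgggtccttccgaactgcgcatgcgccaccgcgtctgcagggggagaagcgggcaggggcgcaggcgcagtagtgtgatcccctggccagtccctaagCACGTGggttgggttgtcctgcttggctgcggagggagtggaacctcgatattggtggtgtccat

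A match is a description of letters and not of a bound site. The ASNS window carries TGATGAAA. The MTHFD1L window holds both motifs, beside the limit on its counts given above. MYC itself was at 66.3 ± 8.55 and 52.1 ± 5.47 CPM (SD, n = 3; log2 fold change -0.35, edgeR adjusted p = 0.308).

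The other genes of folate metabolism gave no call as tested. Of 23 listed, 16 were tested and 0 passed by edgeR (1 at an unadjusted p under 0.05, lower), by DESeq2 or by limma-voom, and their median log2 fold change was -0.05. With no filter on low counts 1 of 21 passed as lower, and without control replicate 1 it was 1 of 17. The most abundant were MTHFD2L, a second mitochondrial dehydrogenase (-0.20), and MTFMT, which formylates the initiator tRNA of mitochondria (-0.15). TYMS, the thymidylate synthase, had 3, 26 and 13 counts in control and 0, 0 and 2 in the other group, did not reach the count filter and is named after its values were seen. The enzymes of purine synthesis that consume formyl groups were counted in this folate list. A separate list of other purine genes, with salvage genes such as APRT, gave 0 of 12 by edgeR (1 lower at an unadjusted p under 0.05), DESeq2 and limma-voom. Its median was -0.18 with 11 of 12 genes below 0, and its most abundant genes were APRT (-0.13) and ADSL (-0.29).

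The methionine cycle takes methyl groups from folate and makes the methyl donor S-adenosylmethionine. Its list also holds transsulfuration genes and genes beside the cycle, such as NNMT and AHCYL1, and some of the listed genes fell. Of 11 genes tested, 3 fell and 0 rose by edgeR (3 lower and 0 higher at an unadjusted p under 0.05, and the same numbers by DESeq2 and limma-voom), with the median at 0.02. Over all genes, 1.51% passed as lower and 15.4% had an unadjusted p under 0.05 in either direction. The count was 2 with library totals only and in 5 of the 6 fits that left out a library, and 0 on the FPKM values. MAT2A, the synthetase that makes S-adenosylmethionine, fell from 210.1, 174 and 225 to 107, 90.2 and 93.9 CPM (0.478-fold, interval 0.381 to 0.599, edgeR adjusted p = 0.00197). NNMT, a methyltransferase that spends it on nicotinamide, fell from 97.8, 72.5 and 80.1 to 37.9, 32.2 and 44.2 CPM (0.457-fold, interval 0.354 to 0.589, edgeR adjusted p = 0.00286). AHCYL1, a protein related to the hydrolase AHCY, fell from 88.1, 127 and 104 to 66.3, 59.6 and 70.8 CPM (log2 fold change -0.70, edgeR adjusted p = 0.0383).

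In each of the 3 genes every library of the second group lay below every control library. AHCY, which clears the product of methyl transfer, was at 197 ± 13.96 and 196 ± 9.32 CPM (log2 fold change -0.01, edgeR adjusted p = 0.984). MAT2A and NNMT passed in all 6 fits that left out a library, while AHCYL1 passed without control replicate 1 (adjusted p = 0.0455) and in none of the other 5 (0.0611 to 0.166, edgeR), nor with library totals as the only scaling (0.0515). On the FPKM values none of the 3 passed.

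**Figure D5:**
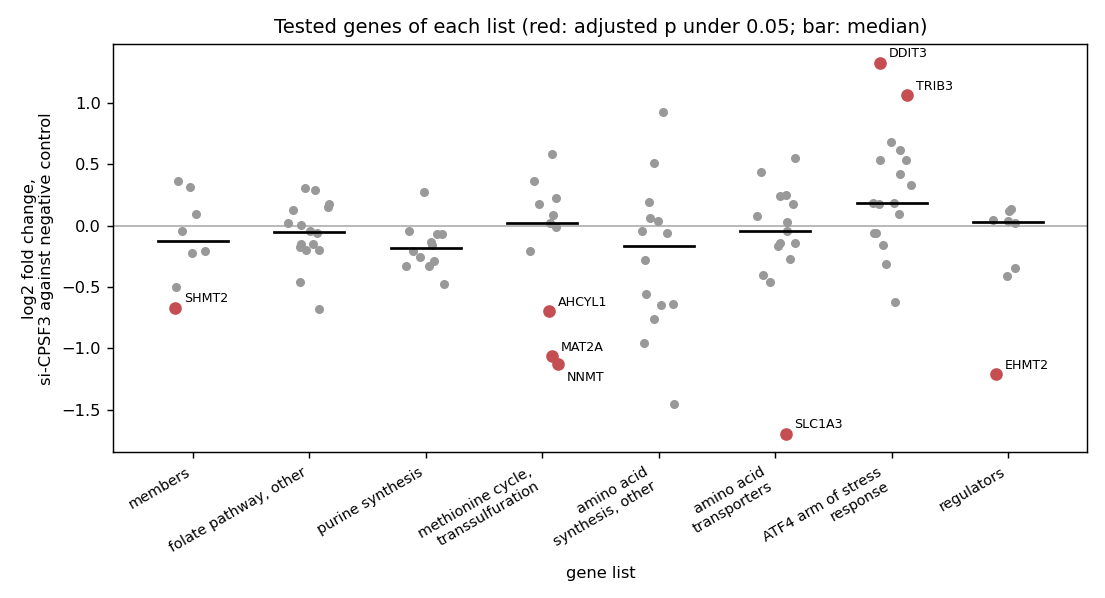
Log2 fold change of each tested gene (points) in the members and in 7 lists of neighbouring pathways, with the median of each list as a bar. Red points passed at an adjusted p under 0.05 and are named; they are SHMT2 in the members, 3 lower genes of the methionine cycle list, SLC1A3, EHMT2, and DDIT3 and TRIB3 above 0.

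Enzymes of other amino acids gave 0 of 14 by edgeR as reported, 0 by DESeq2 and 1 higher by limma-voom. At an unadjusted p under 0.05, edgeR held 2 higher and 6 lower, where 15.4% of all genes stood in either direction. The groups of 8 of the 14 did not overlap in CPM, which held for 21.2% of all genes. By edgeR with RLE or upper-quartile factors 1 passed as higher, and with no filter 1 higher and 1 lower of 16. PYCR1 of proline synthesis, an abundant gene of the list, was at a log2 fold change of -0.06. Of 15 amino acid transporters tested, 1 passed, as lower, where 1.51% of all genes passed as lower. This was SLC1A3, which carries glutamate and aspartate. SLC1A3 fell, at low levels, from 4.07, 8.54 and 7.81 to 1.34, 2.34 and 2.49 CPM (log2 fold change -1.70, edgeR adjusted p = 0.0492). It passed without control replicate 1 (0.0441) and in none of the other 5 fits that left out a library (0.0821 to 0.167, edgeR), and not by DESeq2 or limma-voom (adjusted p = 0.0969 and 0.109), and in 5 of all 18 settings. The cystine transporter SLC7A11 and its partner SLC3A2, the most abundant of the list, were at -0.14 and 0.18.

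Among 8 tested regulators of these pathways, EHMT2, a histone methyltransferase known to promote transcription of serine synthesis genes in tumour cells, fell from 17.4, 13.96 and 14.1 to 7.25, 4.204 and 8.16 CPM (log2 fold change -1.21, edgeR adjusted p = 0.0319). Its groups did not overlap. The call held without replicate 3 of the libraries labelled si-CPSF3 (0.0384) and in none of the other 5 fits that left out a library (0.0538 to 0.143, edgeR), and DESeq2 gave 0.0505. PHGDH, PSAT1 and PSPH did not pass, as given above. PKM, the pyruvate kinase and an abundant gene of the list, was at a log2 fold change of -0.41 (edgeR adjusted p = 0.206). Of 4 mesenchymal markers, 2 lay above 0 and 2 below (median 0.0038), and 1 passed, where 2.23% of all genes did: SPARC, a matrix protein, fell (log2 fold change -2.22, edgeR adjusted p = 0.00208). VIM was at -0.22 and ZEB1 at 0.23, neither past the threshold.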

How the data were processed

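Total RNA of 6 libraries was read as mRNA after a SMARTer library preparation, per the labels' protocols. The authors deposited raw read counts per gene and FPKM values, made on hg38 per the submitters' processing notes; the sources used here name no aligner, counter, strand setting or annotation. The 25479 rows carry 23382 gene names, and each gene was represented by its row of highest mean count. Of the names, 23014 matched RefSeq (GRCh38.p14), which gave positions. The counts, whole numbers deposited without normalization, were tested by quasi-likelihood in edgeR 4.0.16 under R 4.3.3 (TMM factors, default expression filter, group as the only term, Benjamini-Hochberg over 11069 genes, two-sided, 0.05). CPM used TMM-adjusted library sizes, intervals are 95% from the fit, and FPKM as deposited by the authors served for levels between genes and, with pseudocounts of 1 and 0.1, as alternatives. Replicates differed beyond sampling noise (chi-square per degree of freedom 5.91 to 14.2), so each counted once.

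Members and lists were chosen with earlier results of these data known. Text names every member, each list's genes past the threshold, its 2 most abundant genes, and ATF4, DDIT3 and TRIB3; MYC and TYMS are additions made after their values were seen. Some genes that this rule names are not reported here. Alternatives were other scalings and filters, DESeq2 1.42.0, limma-voom (limma 3.58.1), a replicate block, each library left out, FPKM, summed rows, and a table without ribosomal protein, mitochondrial and MALAT1 genes. Same-numbered libraries of the groups did not deviate together. No protein sequence was used here.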

Additional observations from a re-analysis of the deposited data

How the results depend on the processing

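The number of changed genes, 247 as reported, was 547 with no filter on low counts, 41 and 31 by limma-trend on log2 FPKM with pseudocounts of 1 and 0.1, and 85 to 199 with 1 library left out; other settings stayed within 1.5 times, apart from the replicate block. With the replicate number as a block it was 147, and the correlation of deviations between same-numbered libraries was 0.05, 0.08 and -0.05, so the numbers were not taken as pairs. The number of members past the threshold was 1 as reported and 0 with RLE factors, upper-quartile factors, DESeq2, limma-voom, the replicate block (SHMT2 adjusted p = 0.0821) and both FPKM fits, and 0 to 1 with 1 library left out; at an unadjusted p under 0.05 these fits held 1 to 3 members. SHMT2 was lower in all 18 settings.

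Small fold changes short of the threshold changed sign. With 1 library left out, PHGDH ran from -0.14 to 0.033, PSPH from -0.066 to 0.29, ATF4 from -0.18 to 0.042, MTHFD2L from -0.46 to 0.053, AHCY from -0.068 to 0.041 and SLC7A11 from -0.24 to 0.028. AHCY was 0.0052 with RLE factors, 0.022 with upper-quartile factors and 0.0015 by DESeq2. APRT was 0.011 in both FPKM fits. The cause was not tested. At 4145385 to 4378899 counts per library, SHMT1, ALDH1L2 and TYMS were below the count filter, so their changes were not tested in the reported fit. The groups of TYMS did not overlap in CPM, with 3 counts in the lowest control library and 2 in the highest library labelled si-CPSF3.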

Other observations

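MTHFD1L was not alone among abundant coding genes in enclosing a ribosomal protein pseudogene. Of 36 protein-coding genes with a mean of at least 1000 CPM, ribosomal protein genes left out, 5 held at least 1 such RefSeq pseudogene within their span, where 4.70% of 9301 tested coding genes did. They were GGACT (7400 CPM in the mean of 6 libraries, with RPS26P47 inside), DENND1B (4103 CPM, RPL24P5), MTHFD1L (2864 CPM, RPL32P16), ANXA2 (1609 CPM, RPL36AP44) and NBEAL1 (1073 CPM, with RPL12P16, RPL23AP36 and RPL7P14). The ratio of the host count to the count of the pseudogene's parent varied by 1.15-fold over the 6 libraries for MTHFD1L and RPL32, by 1.57-fold for GGACT and RPS26, by 1.70-fold for DENND1B and RPL24, by 1.72-fold to 2.28-fold for NBEAL1 and its 3 parents, and by 10.9-fold for ANXA2 and RPL36A. MTHFD1L stood in place 14 among coding genes by mean CPM when ribosomal protein genes are left out.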
